A study of Arabidopsis thaliana with 18 samples.

Results

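Transcript levels of 9 Arabidopsis thaliana genes were described in wild type (wt) plants: GIGANTEA (GI, AT1G22770), the F-box genes ZEITLUPE (ZTL, AT5G57360), FLAVIN-BINDING, KELCH REPEAT, F-BOX 1 (FKF1, AT1G68050) and LOV KELCH PROTEIN 2 (LKP2, AT2G18915), and the CYCLING DOF FACTOR genes CDF1 (AT5G62430), CDF2 (AT5G39660), CDF3 (AT3G47500), CDF4 (AT2G34140) and CDF5 (AT1G69570). The genes were picked by their identifiers, with earlier results of these data known, and are 9 of the 33331 genes listed. The series holds 18 RNA-seq samples of the aerial parts of plants in 6 groups of 3 biological replicates, with several plants bulked in each. The groups are a line that expresses the AtGRP7 coding sequence from the cauliflower mosaic virus 35S promoter (AtGRP7-ox), grp7-1 8i, a T-DNA mutant of AtGRP7 that also carries an RNA interference construct against AtGRP8, and wt Col-2, each harvested at LL36 and at LL24. All plants had grown in cycles of 12 h light and 12 h dark for 16 days before transfer to continuous light (LL). The LL36 samples were taken after 36 h in LL, at subjective dusk, and the LL24 samples after 24 h in LL, at subjective dawn. The 6 wt libraries, 3 at LL36 and 3 at LL24, were compared, and levels in AtGRP7-ox and grp7-1 8i were not analysed here.

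GI is a large plant protein of the circadian clock that acts together with the F-box proteins of the ZTL family. Each ZTL-family protein joins a blue-light-sensing LOV domain to an F-box, which docks it on an SCF ubiquitin ligase, and to kelch repeats, which bind other proteins. ZTL targets the clock proteins TOC1 and PRR5 for degradation, and GI, bound to ZTL in blue light, stabilises it. FKF1 with GI removes the CDF proteins in the afternoon. The CDFs are DOF zinc finger proteins that repress CONSTANS (CO) and FLOWERING LOCUS T (FT), so that GI, FKF1 and the CDFs together time the CO signal that sets flowering to day length.

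The upstream sequences of the 9 genes were searched on both strands for 4 short motifs of clock and light regulation. These were the evening element (AAAATATCT), which is known from genes expressed in the evening, the CCA1 binding site (AAAAATCT), the G-box (CACGTG) and the LUX binding site (GATTCG or GATACG). The evening element matches are shown first because, among the 9 genes, only GI and FKF1 held any within 1000 bases of the annotated start, and these were the genes with higher transcript levels at LL36. Each sequence is given in the direction of transcription, with the motif in capitals and 10 bases on either side. All positions given here, of sites and of genes, are those of the TAIR10.1 assembly. The stretches with the evening elements, read on the plus strand, are chr1:8060932-8060960, chr1:8060964-8060992 and chr1:8061150-8061178 for GI and at chr1:25508256-25508284 and chr1:25508443-25508471 for FKF1. The second GI match and the second FKF1 match read as the reverse complement, AGATATTTT.
GI, 801 bases upstream: gtaagattttAAAATATCTtaaaagatgt
GI, 769 bases upstream: aggcccatttAGATATTTTctcaacgggc
GI, 583 bases upstream: agctcccctcAAAATATCTgtggacatat
FKF1, 365 bases upstream: gcgtttcacaAAAATATCTattatttgac
FKF1, 178 bases upstream: tgagtaggctAGATATTTTctcggaatat

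Among 27443 protein-coding genes, 7.24% held an evening element within 1000 bases upstream and 2.36% within 250 bases. GI had 3 matches within 1000 bases and FKF1 had 2, whereas within 250 bases only FKF1 had a match. The 1000-base window was added after the data and the 250-base window had been seen. G-boxes lay upstream of CDF2 and CDF5, which both had lower levels at LL36, and are shown for that reason. CDF1 and CDF3, which were also lower, held none, and the CDF5 matches lay only in the 1000-base window. The CDF2 match was at chr5:15878611-15878636 on the plus strand, and the 3 CDF5 matches were at chr1:26164575-26164600, chr1:26164479-26164504 and chr1:26164411-26164436 on the minus strand, in the order shown.
CDF2, 72 bases upstream: taagaatcctCACGTGtgatgacgtg
CDF5, 870 bases upstream: atattaaatcCACGTGtcggataatc
CDF5, 774 bases upstream: gaccaatccaCACGTGgtgtattaca
CDF5, 706 bases upstream: ggtcatgtgcCACGTGtttacacagc

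Within 1000 bases, 14.8% of the 27443 genes held a G-box, 21.1% a CCA1 binding site and 39.8% a LUX binding site, so that a match to the last is common. Within 250 bases the shares were 6.49%, 6.69% and 12.1%. CCA1 binding sites were found upstream of LKP2 and CDF5, and LUX binding sites upstream of GI, LKP2, CDF2 and CDF5. ZTL, CDF1, CDF3 and CDF4 held no match to any of the 4 motifs in this window, although CDF1 and CDF3 changed between the time points. No match to 1 motif overlapped a match to another. A match here is a run of letters and was not tested as a binding site.

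**Figure D1:**
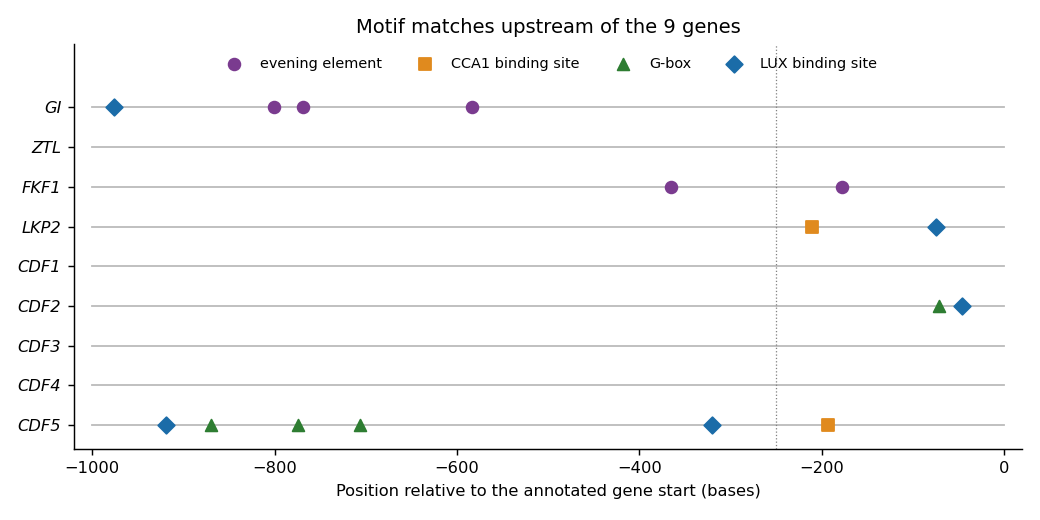
Matches to 4 motifs within 1000 bases upstream of the annotated start of each of the 9 genes, with the position in bases on the x axis and the gene on the y axis (dotted line, 250 bases). The evening elements (circles) sit on GI and FKF1, the G-boxes (triangles) on CDF2 and CDF5, and 4 genes carry no match.

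The levels are in TPM (the number of transcripts of a gene, scaled to a fixed library total), a share of each library's transcripts corrected for transcript length, so that levels of different genes can be set side by side. A gene was called changed when the adjusted p of limma, a linear model fitted to log2(TPM + 0.5) across the 19303 genes whose mean exceeded 1 TPM at LL36 or LL24, was below 0.05. The median of all tested genes lay 0.21 higher at LL36 on the log2 scale, and changes are also given relative to this median. Of the 9 genes, 6 were called, GI and FKF1 with higher levels at LL36 and CDF1, CDF2, CDF3 and CDF5 with lower levels, while ZTL, LKP2 and CDF4 did not pass the test. The time points differed widely across the transcriptome, as 52.4% of all tested genes were called. Genes called higher at LL36 made up 41.2% of all tested genes, and genes called lower at LL36 made up 11.2%. For the same 6 genes the 3 LL36 libraries and the 3 LL24 libraries did not overlap, which held for 63.8% of all tested genes. All 6 changed by more than 1 on the log2 scale relative to the median, a size that, together with the call, was reached by 6.82% of the tested genes. For CDF5 this depended on the 0.5 added, as its relative change was -0.95 with 1 added. CDF4 and CDF5 were low at both time points, with no library above 2.27 TPM.

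**Figure D2:**
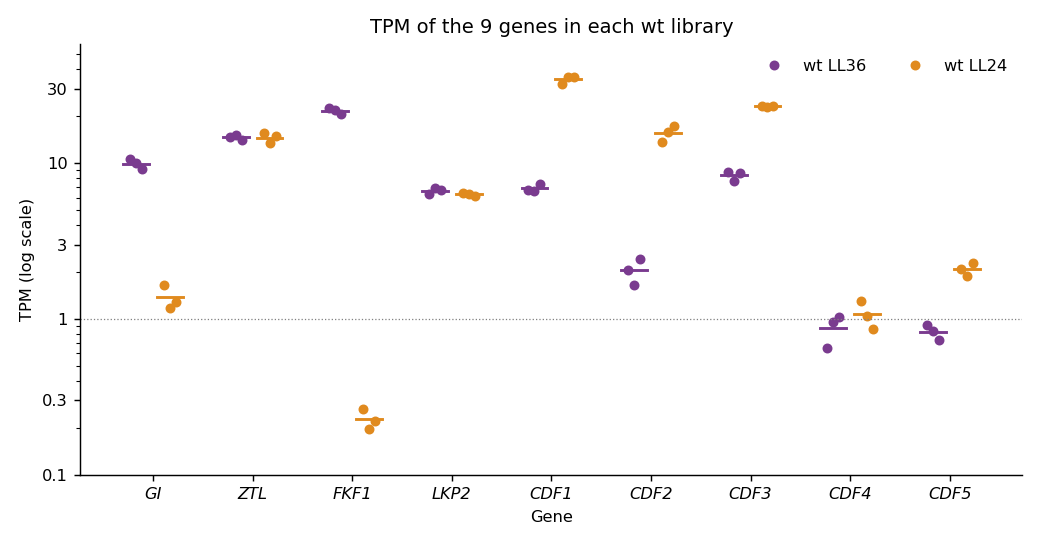
TPM on a log scale for each of the 9 genes, with the 3 wt LL36 libraries on the left and the 3 wt LL24 libraries on the right of each pair, a bar at each mean and a dotted line at 1 TPM. GI and FKF1 sit higher at LL36, CDF1, CDF2, CDF3 and CDF5 sit lower at LL36, and ZTL, LKP2 and CDF4 overlap between the time points.

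GI, encoded at chr1:8061751-8067790 on the plus strand in 14 exons, had 10.7, 9.96 and 9.10 TPM in the LL36 libraries and 1.66, 1.18 and 1.29 TPM in the LL24 libraries. Every LL36 library was above every LL24 library. The mean was 9.91 ± 0.788 TPM at LL36 and 1.38 ± 0.252 TPM at LL24 (SD, n = 3 each), a ratio of 7.20. On the log2(TPM + 0.5) scale, where low levels give smaller changes than the ratio does, GI was 2.48 higher (SE 0.12, limma adjusted p = 2.05e-05), or 2.26 relative to the median gene (95% interval 1.98 to 2.55).

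Among the F-box genes, FKF1 (chr1:25508639-25510907, plus strand, 2 exons) had 22.5, 21.9 and 20.6 TPM in the LL36 libraries and 0.264, 0.197 and 0.222 TPM in the LL24 libraries. At LL24 it was the lowest of the 9 genes and at LL36 the highest. The means were 21.7 ± 0.974 TPM at LL36 and 0.228 ± 0.0340 TPM at LL24 (SD, n = 3 each), a ratio of 95.3, and the log2 change was 4.93 (SE 0.08, limma adjusted p = 6.70e-07). Relative to the median gene the change was 4.72, which ranked 14 among the 19303 tested genes in the direction of higher levels at LL36 and 22 by size in either direction. FKF1 passed the filter on low levels only through its LL36 group. Its exons share 21 bases, 0.969% of their length, with MAP70-1 (AT1G68060) on the opposite strand. That gene was at 19.2 to 19.7 TPM at LL36 and 12.9 to 13.4 TPM at LL24, so that the ratio of FKF1 to it was 1.07 to 1.15 at LL36 and 0.0147 to 0.0205 at LL24.

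ZTL (chr5:23241320-23244590, plus strand, 3 exons) had 14.6, 15.1 and 14.1 TPM in the LL36 libraries and 15.5, 13.4 and 14.8 TPM in the LL24 libraries, and the groups overlapped. The log2 change was 0.01 with a 95% interval of -0.16 to 0.18 (limma adjusted p = 0.922), and relative to the median gene it was -0.20 (-0.37 to -0.03). ZTL was the only F-box gene above 10 TPM in all 6 libraries. LKP2 (chr2:8194512-8197483, minus strand, 2 exons), the close homologue of ZTL, had 6.35, 6.93 and 6.68 TPM in the LL36 libraries and 6.45, 6.31 and 6.10 TPM in the LL24 libraries, and its groups overlapped too. Its log2 change was 0.07 with a 95% interval of -0.08 to 0.23 (limma adjusted p = 0.354), and relative to the median gene -0.14 (-0.29 to 0.02). The sign of the ZTL and LKP2 log2 changes turned with the scaling of the libraries, so that no direction is given for either. Relative to the median gene, the changes over 14 alternatives of the processing were -0.27 to -0.13 for ZTL and -0.16 to -0.06 for LKP2. Neither gene passed the test in any of them. The 95% intervals exclude a change of the size seen for FKF1 but do not show that the levels were the same. LKP2 shares 370 exon bases, 15.8% of its exon length, with AT2G18917, a long non-coding RNA on the opposite strand. AT2G18917 had 2.60, 3.17 and 3.44 TPM at LL36 and 3.91, 2.76 and 3.42 TPM at LL24. The kit did not mark strand, so that reads from the shared bases cannot be told apart by strand.

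With FKF1 near 0.2 TPM at LL24, the summed level of the 3 F-box genes followed FKF1 alone. The sum of ZTL, LKP2 and FKF1 was 43.0 ± 1.34 TPM at LL36 and 21.1 ± 1.16 TPM at LL24 (SD, n = 3 each), a ratio of 2.04, with ranges of 41.5 to 44.0 TPM and 19.9 to 22.2 TPM. FKF1 made up 50.5 ± 1.13% of that sum at LL36 and 1.08 ± 0.102% at LL24. ZTL made up 34.0 ± 0.367% at LL36 and 69.0 ± 1.54% at LL24, and LKP2 15.5 ± 0.793% at LL36 and 29.9 ± 1.61% at LL24. The main F-box transcript was thus FKF1 at LL36 and ZTL at LL24. GI had 0.643 to 0.730 times the TPM of ZTL at LL36 and 0.0870 to 0.107 times at LL24, while against FKF1 it had 0.441 to 0.473 times at LL36 and 5.80 to 6.28 times at LL24. The balance of GI to its F-box partners thus moved in opposite directions for ZTL and for FKF1, with no overlap between the time points. These are levels of transcripts and not of proteins.

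CDF1 (chr5:25069093-25071111, minus strand, 2 exons) had 6.75, 6.60 and 7.34 TPM in the LL36 libraries and 32.1, 35.8 and 35.6 TPM in the LL24 libraries. It was the most abundant of the 9 transcripts at LL24, and the groups did not overlap. The means were 6.89 ± 0.392 TPM at LL36 and 34.5 ± 2.08 TPM at LL24 (SD, n = 3 each), so that LL24 exceeded LL36 by a factor of 5.01. The log2 change was -2.24 (SE 0.07, limma adjusted p = 3.25e-06), or -2.46 relative to the median gene.

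CDF2 (chr5:15878698-15881537, plus strand, 2 exons), the gene with the G-box shown above nearest to its start, had 2.07, 1.66 and 2.42 TPM in the LL36 libraries and 13.7, 15.7 and 17.4 TPM in the LL24 libraries. The means were 2.05 ± 0.379 TPM at LL36 and 15.6 ± 1.84 TPM at LL24 (SD, n = 3 each), and LL24 exceeded LL36 by a factor of 7.62. Its log2 change of -2.66 (SE 0.14, limma adjusted p = 2.54e-05), or -2.88 relative to the median gene, was the largest among CDF1 to CDF5. CDF3 (chr3:17503883-17506124, minus strand, 2 exons) had 8.74, 7.66 and 8.67 TPM in the LL36 libraries and 23.4, 23.0 and 23.3 TPM in the LL24 libraries. It was the CDF with the highest level at LL36. Its means were 8.36 ± 0.604 TPM at LL36 and 23.2 ± 0.178 TPM at LL24 (SD, n = 3 each), a factor of 2.78 in favour of LL24, with a log2 change of -1.42 (SE 0.07, limma adjusted p = 1.76e-05), or -1.64 relative to the median gene.

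CDF4 (chr2:14413694-14414788, minus strand), a gene of 1 exon, had 0.649, 0.960 and 1.02 TPM in the LL36 libraries and 1.30, 1.04 and 0.867 TPM in the LL24 libraries. These low levels overlapped, and the log2 change of -0.19 had a 95% interval of -0.65 to 0.27 (limma adjusted p = 0.431). CDF4 had the widest spread between replicates of the 9 genes, with a within-group SD of 0.210 on the log2 scale against 0.111 for the median gene and 0.0490 for LKP2. CDF5 (chr1:26161528-26163715, minus strand, 2 exons) had 0.915, 0.836 and 0.735 TPM in the LL36 libraries and 2.08, 1.90 and 2.27 TPM in the LL24 libraries. The groups did not overlap. The means were 0.829 ± 0.0899 TPM at LL36 and 2.08 ± 0.186 TPM at LL24 (SD, n = 3 each), a factor of 2.51 in favour of LL24, and the log2 change was -0.96 (SE 0.13, limma adjusted p = 0.00167), or -1.17 relative to the median gene. Both CDF4 and CDF5 passed the filter only through their LL24 groups, since their LL36 means were below 1 TPM.

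The value of CDF5 carries a limit of its own, as 1154 of its exon bases, 59.9% of its exon length, lie within AT1G69572, a long non-coding RNA transcribed from the opposite strand. AT1G69572 had 5.32, 6.41 and 6.36 TPM in the LL36 libraries and 4.47, 3.82 and 3.31 TPM in the LL24 libraries. Its groups did not overlap and lay in the opposite order from those of CDF5. The log2 change of AT1G69572 was 0.58 (limma adjusted p = 0.00868), and it no longer passed after median-of-ratios scaling (0.39, limma adjusted p = 0.0515) or quantile normalization (0.39, limma adjusted p = 0.0529). The ratio of CDF5 to AT1G69572 was 0.172, 0.130 and 0.116 at LL36 and 0.466, 0.496 and 0.685 at LL24. How much of either value comes from reads of the other strand was not tested.

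**Figure D3:**
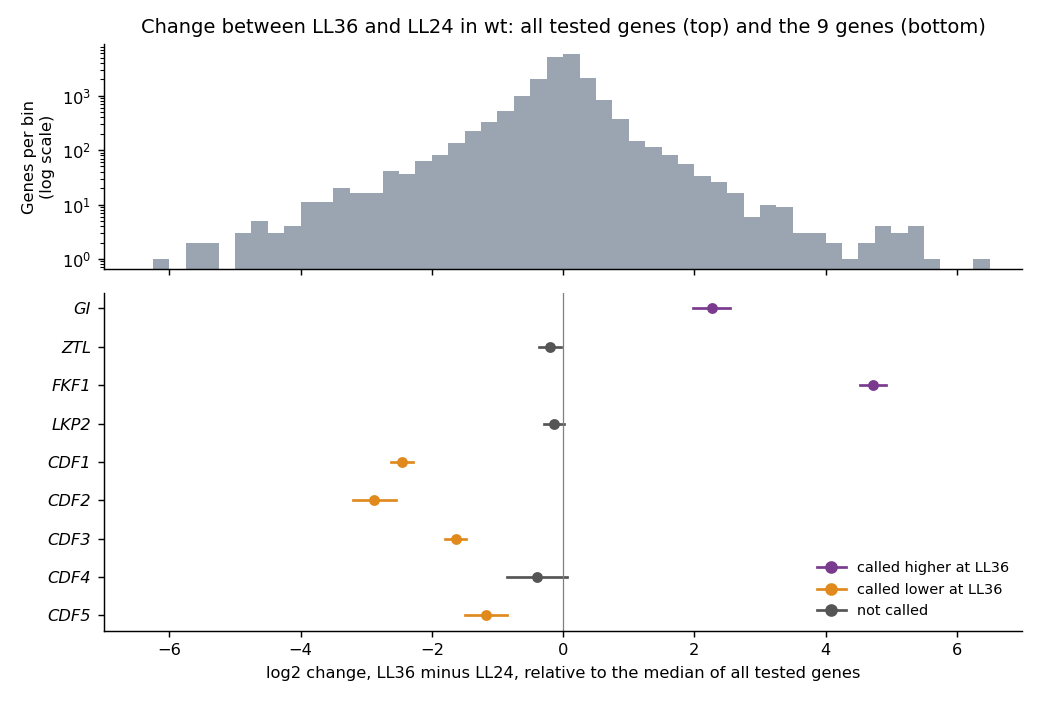
Distribution of the log2 change (LL36 minus LL24, relative to the median) of all 19303 tested genes on a log count axis (top) and the change of each of the 9 genes with its 95% interval (bottom), coloured by call. FKF1 lies at 4.72 and GI at 2.26, CDF1, CDF2, CDF3 and CDF5 lie between -2.88 and -1.17, and ZTL, LKP2 and CDF4, which were not called, lie between -0.40 and -0.14.

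The 5 CDF transcripts together summed to 19.0 ± 1.24 TPM at LL36 and 76.5 ± 3.52 TPM at LL24 (SD, n = 3 each), so that LL24 exceeded LL36 by a factor of 4.02. The composition of this sum differed as well. CDF1 contributed 36.3 ± 0.976% at LL36 and 45.1 ± 1.01% at LL24, and CDF2 10.7 ± 1.30% at LL36 and 20.4 ± 1.504% at LL24. CDF3 contributed 44.0 ± 1.51% at LL36 and 30.4 ± 1.57% at LL24, and was the main CDF transcript at LL36 in place of CDF1. The ratio of CDF1 to CDF3 was 0.772 to 0.861 in the LL36 libraries and 1.37 to 1.55 in the LL24 libraries. CDF4 and CDF5 stayed minor, at 4.63% and 4.38% at LL36 and 1.41% and 2.72% at LL24.

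**Figure D4:**
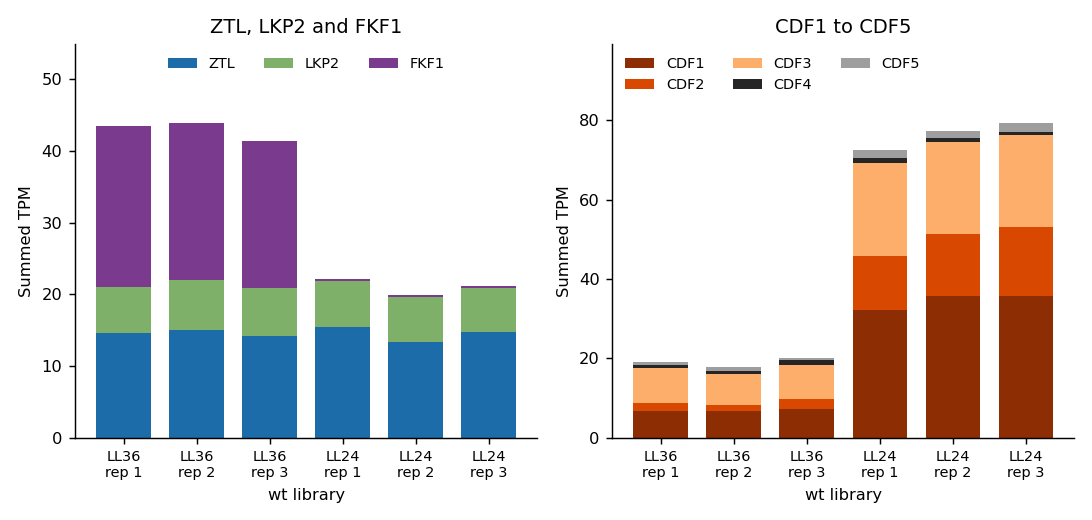
Summed TPM of ZTL, LKP2 and FKF1 (left) and of CDF1 to CDF5 (right) in each wt library, with the 3 LL36 libraries before the 3 LL24 libraries and each gene as a segment of the bar. The F-box sum is 41.5 to 44.0 TPM at LL36 and 19.9 to 22.2 TPM at LL24 and differs by the FKF1 segment, and the CDF sum is 17.7 to 20.2 TPM at LL36 and 72.6 to 79.4 TPM at LL24.

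Set in order of their means, the transcripts at LL36 ran FKF1, ZTL, GI, CDF3, CDF1, LKP2, CDF2, CDF4 and CDF5, where the libraries of CDF1 overlapped those of LKP2 and the libraries of CDF4 those of CDF5. At LL24 the order was CDF1, CDF3, CDF2, ZTL, LKP2, CDF5, GI, CDF4 and FKF1, where CDF2 overlapped ZTL and GI overlapped CDF4. FKF1 and CDF1 thus stood at opposite ends of the LL24 order. The ratio of FKF1 to CDF1 was 2.81 to 3.34 at LL36 and 0.00551 to 0.00823 at LL24, so that the FKF1 transcript exceeded the CDF1 transcript at LL36 and was far below it at LL24.

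The profiles of GI, FKF1 and CDF1 over the 6 libraries were compared with those of all other tested genes by the Euclidean distance between centred log2 values. With 2 time points such a distance reflects mainly the size of the change. Nearest to GI were AT2G40350 (distance 0.149), AT1G13930 (0.221) and RCI2A (0.228), a small membrane protein gene named for its induction by cold. AT2G40350 averaged 2.41 ± 0.349 TPM at LL36 and 0.0260 ± 0.0451 TPM at LL24, far lower than GI at LL24, and its place beside GI depended on the 0.5 added before the logarithm. With 0.1 added in its place the log2 change of AT2G40350 was 4.36 and that of GI 2.77, and with 1 added they were 1.73 and 2.20. Nearest to FKF1 were AT5G62360 (0.243), RbcX1 (0.263), which encodes a Rubisco assembly chaperone, and CCL (0.297). Their likeness to FKF1 also depended on the 0.5 added, as FKF1 was below that value at LL24. With 0.1 added the log2 change was 6.06 for FKF1, 5.43 for AT5G62360, 4.93 for RbcX1 and 5.15 for CCL. With 1 added these changes were 4.21, 4.79, 4.70 and 5.13. AT5G62360 averaged 67.0 ± 3.53 TPM at LL36 and 1.46 ± 0.0466 TPM at LL24, and CCL 2656 ± 102.6 TPM at LL36 and 74.9 ± 8.52 TPM at LL24 (SD, n = 3 each). Nearest to CDF1 were ABA1 (0.186), the zeaxanthin epoxidase gene of abscisic acid synthesis, AT3G01060 (0.196) and CYP71B2 (0.197), with ABA1 at 40.1 ± 0.844 TPM at LL36 and 198.1 ± 9.09 TPM at LL24. Among the 9 genes themselves, ZTL and LKP2 were 0.188 apart, CDF1 and CDF2 0.575, and CDF3 and CDF5 0.620.

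The list of partners, substrates and downstream genes held 25 genes, all tested, of which 15 were called, 11 with higher and 4 with lower levels at LL36. This is 60% of the list, beside 52.4% of all tested genes, and the median change of the list was 0.15 (-0.06 relative to the median gene). The split depended on the scaling, with 6 higher and 9 lower after median-of-ratios scaling and 9 higher and 9 lower after quantile normalization. The 15 of 25 called after median-of-ratios scaling stood beside 6599 of all 19288 tested genes. After quantile normalization 18 of 25 were called, beside 6632 of all 19303. The distance of the list from the share of all genes thus depended on the scaling too. Of the 25 genes, 7 were called with a change past 1 relative to the median, which 6.82% of all tested genes reached together with the call. These 7 genes kept their direction under both scalings.

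Among the genes whose proteins ZTL binds, TOC1, a clock repressor of the evening, had 61.4, 61.6 and 59.7 TPM in the LL36 libraries and 7.08, 6.94 and 6.45 TPM in the LL24 libraries. The groups were far apart, with a log2 change of 3.07 (limma adjusted p = 6.98e-07), or 2.86 relative to the median gene. PRR5, a clock repressor and ZTL substrate, had 16.2, 17.7 and 17.5 TPM at LL36 and 0.877, 1.13 and 0.921 TPM at LL24, a relative change of 3.37 (limma adjusted p = 1.47e-06). PRR5 passed the filter only through its LL36 group, and its relative change was 3.78 with 0.1 and 3.00 with 1 added before the logarithm. PRR3, which protects TOC1 from ZTL, averaged 38.6 ± 1.26 TPM at LL36 and 1.07 ± 0.0875 TPM at LL24 (SD, n = 3 each), a relative change of 4.43 (limma adjusted p = 4.48e-07). All 3 genes rose at LL36 while ZTL, whose groups overlapped, did not pass the test. ELF3, a clock protein that binds GI, averaged 36.3 ± 2.04 TPM at LL36 and 10.03 ± 0.499 TPM at LL24, a relative change of 1.59 (limma adjusted p = 6.50e-06). The SCF subunit genes ASK1, ASK2, CUL1 and RBX1 had relative changes of 0.04 to 0.31, and only ASK2 remained called under both other scalings.

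Downstream of the CDFs, CO had 1.46, 1.59 and 1.49 TPM in the LL36 libraries and 1.38, 1.26 and 1.16 TPM in the LL24 libraries. The groups did not overlap, but the log2 change of 0.19, which was -0.02 relative to the median gene, did not pass the test (limma adjusted p = 0.228). FT, the mobile flowering signal, had 1.83, 2.70 and 2.61 TPM in the LL36 libraries and 7.91, 13.3 and 8.90 TPM in the LL24 libraries. FT was lower in every LL36 library, with a log2 change of -1.85 (limma adjusted p = 0.000807), or -2.06 relative to the median gene. Its homologue TSF had 0.0420, 0.183 and 0 TPM at LL36 and 0.896, 2.35 and 1.37 TPM at LL24, a relative change of -1.99 (limma adjusted p = 0.00421). TSF passed the filter only through its LL24 group, and its relative change was -3.49 with 0.1 and -1.40 with 1 added before the logarithm. The FT and TSF transcripts were thus lower at LL36, as were those of CDF1, CDF2, CDF3 and CDF5, which encode repressors of FT. These are transcript levels and not protein levels, and repression of FT by the CDFs was not tested.

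TEM2, an FT repressor whose protein interacts with GI, had 7.05, 13.9 and 24.7 TPM in the LL36 libraries and 49.5, 65.3 and 76.8 TPM in the LL24 libraries, a relative change of -2.39 (limma adjusted p = 0.00607). Within each time point its libraries had the same order as the summed level of 10 genes that respond to handling within minutes, which was 189.6, 200.8 and 361.9 TPM at LL36 and 338.2, 433.5 and 515.2 TPM at LL24. The members of this list did not all follow that order. CBF3 ran in the reverse order within both time points, and TCH3, WRKY33 and WRKY40 at LL36 and CBF2 at LL24 also departed from it. Between the time points TCH2 and TCH4 were called lower at LL36, and CBF1 and CBF3 higher. The part of handling in the TEM2 result was not tested.

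**Figure D5:**
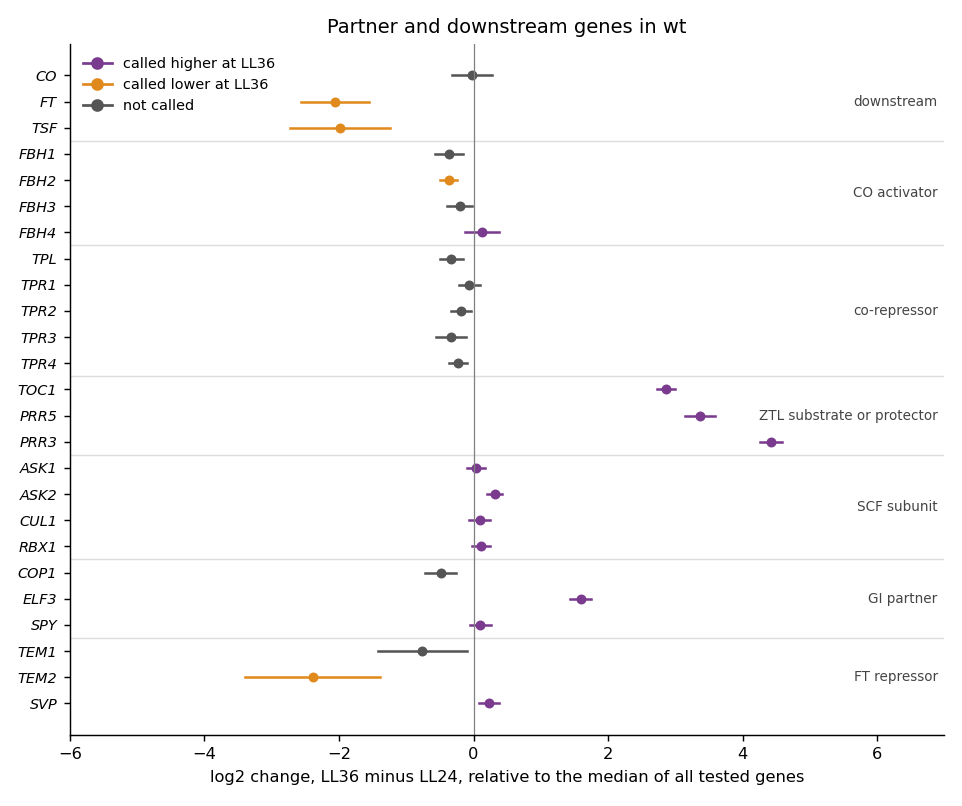
Change of the 25 partner and downstream genes (log2, LL36 minus LL24, relative to the median of all tested genes) with 95% intervals, grouped by role and coloured by the limma call on the deposited TPM. PRR3 (4.43), PRR5 (3.37), TOC1 (2.86) and ELF3 (1.59) lie to the right, TEM2 (-2.39), FT (-2.06) and TSF (-1.99) to the left, and the calls of genes near 0 change with the scaling.

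CDF1 to CDF5 were set beside other genes of the DOF family, to which they belong, and no further gene was treated as a CDF. Of 31 further DOF genes 24 were tested and 7 were called, 3 with higher and 4 with lower levels at LL36, which is 29.2% of those tested beside 52.4% of all genes. The count of 7 was 3 without LL36 replicate 1, 4 without LL24 replicate 1, 4 without LL24 replicate 3, and 4 either with no filter on low levels or with a filter at a mean of 5 TPM. After median-of-ratios scaling 7 of 24 were called, beside 6599 of all 19288 tested genes. After quantile normalization 6 of 24 were called, beside 6632 of all 19303. Each of these DOF genes was lower at LL36, and the distance from the share of all genes thus depended on the scaling. Of the 7 called on the deposited TPM, 2 had a relative change past 1, a size reached together with the call by 6.82% of all tested genes. AT1G26790 had 0.0205, 0.0892 and 0.0206 TPM in the LL36 libraries and 6.26, 6.65 and 7.15 TPM in the LL24 libraries. Its relative change of -3.94 (limma adjusted p = 4.41e-06) was larger in size than those of CDF1 to CDF5 on this scale. AT1G26790 passed the filter only through its LL24 group. AT1G51700 had 13.1, 14.5 and 18.9 TPM in the LL36 libraries and 27.3, 29.4 and 34.6 TPM in the LL24 libraries, a relative change of -1.17 (limma adjusted p = 0.00261). Within each time point its libraries, like those of TEM2, had the same order as the summed handling genes, and the part of this in the result was not tested.

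The wt libraries summed to 990489 to 992864 TPM and held 18523 to 18935 genes above 1 TPM. Libraries of the same time point correlated at r = 0.976 to 0.984 across genes and those of different time points at 0.935 to 0.943, and genes are not independent replicates. The 6 marker genes of photosynthetic tissue summed to 31507 to 34124 TPM at LL36 and 53563 to 55528 TPM at LL24. All 6 were lower at LL36, by unequal amounts, with log2 changes from -0.36 for PSAD1 to -3.44 for LHCB2.1. The part of this in the changes of the 9 genes was not tested, and in such bulk samples fewer cells of a type and less RNA per cell cannot be told apart. Markers of root summed to 199.3 to 210.3 TPM at LL36 and 196.0 to 216.4 TPM at LL24, nearly all from PYK10, and markers of flower and seed to 1.30 to 2.86 TPM at LL36 and 0.622 to 2.49 TPM at LL24.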

How the data were processed

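Polyadenylated RNA of aerial tissue was sequenced from a non-stranded kit. Per the study's methods, the authors trimmed reads with Sickle, used the first read of each pair, mapped with STAR 2.5.2a to the atRTD transcriptome (build TAIR10), quantified with Salmon 0.8.2, combined transcripts per gene with tximport and excluded rRNA, mitochondrial and chloroplast genes. The deposited values are TPM per gene in 1 table. TPM keeps no depth, so the reads behind a value are unknown and no counting interval is given. The 6 columns that match wt labels were used, and 12 columns that match no label were not, so the lines were not compared. The 19303 genes whose mean exceeded 1 TPM at LL36 or LL24 were tested with limma 3.58.1 in R 4.3.3 on log2(TPM + 0.5) (two-sided, mean-variance trend, Benjamini-Hochberg over all tested genes, threshold 0.05), after a test on simulated data. Samples were grouped by label, and same-numbered replicates were not treated as pairs. The named genes were the 9 genes, partners and DOF genes called with a relative change past 1, CO, FT, TOC1, PRR5, ELF3, the genes overlapping a member's exons and the 3 nearest profiles of GI, FKF1 and CDF1. The members and lists were chosen with earlier results of these data known. Motifs were searched in 250 and 1000 bases upstream of RefSeq gene starts in TAIR10.1. Alternatives were 2 other pseudocounts, 2 other filters, 2 scalings, no trend, a replicate block and each replicate left out.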

Additional observations from a re-analysis of the deposited data

How the results depend on the processing

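The same 6 of the 9 genes were called in all 14 alternatives except the filter at a mean above 5 TPM, which removed CDF4 and CDF5 and left 5, and with each replicate left out the count was 6 to 6. Without LL24 replicate 1, CDF4 was not tested. The ZTL change turned to -0.20 after median-of-ratios scaling, -0.18 after quantile normalization, and with a replicate left out it was between -0.049 (without LL24 replicate 2) and 0.053 (without LL24 replicate 1), with -0.01 without LL36 replicate 2, and the LKP2 change to -0.12 under both scalings, none of them past the threshold in limma. The genes called fell to 6599 after median-of-ratios scaling and 6632 after quantile normalization, against 10107 on the deposited TPM. Of the called genes 46.9% and 54.4% were then higher at LL36, against 78.6%, as the scalings moved the median gene to 0.01 and 0.04. Leaving out a replicate gave 7741 to 9571 called genes, 13 to 16 partners and 3 to 6 other DOF genes (4 without LL24 replicate 1, 4 without LL24 replicate 3 and 3 without LL36 replicate 1). Other DOF genes called numbered 4 with no filter and 4 with the filter at 5 TPM. A replicate block gave 9947 called genes, 6 of the 9 genes, 16 partners and 6 other DOF genes. Deviations from the group means correlated at r = 0.128, 0.148 and 0.0341 between same-numbered libraries and at -0.133 to 0.0089 between others, so that each library correlated best with its own number, a hint from the data and not from the design. With 1 of the 3 values under 0.1 and no label that ties the numbers, they were not taken as pairs. A pseudocount of 0.1 moved the log2 changes of TSF to -3.27, of AT1G26790 to -5.60 and of AT2G40350 to 4.36. The log2 change of FKF1 was 6.06 with a pseudocount of 0.1 and 4.21 with 1. With a pseudocount of 1 the relative change of CDF5 was -0.95.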
